A study of Mus musculus with 2 samples.

Results

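UDP-glucuronosyltransferases (Ugt genes) and cytosolic sulfotransferases (Sult genes) were examined in mouse hepatocytes from carbon tetrachloride (CCl4)-injured liver. The members were all genes whose symbol began with Ugt1a, Ugt2a, Ugt3a, Ugt2b or Sult followed by the number of the enzyme, which gave 37 of the 19073 measured features, 16 Ugt and 21 Sult genes. All cells came from male p16-Tom mice on a C57BL/6 background, heterozygous for p16-CreERT2 and for R26-CAG-LSL-tdTomato-WPRE, which had received CCl4 for 4 weeks and tamoxifen. Cells that transcribe p16Ink4a, a cell cycle inhibitor used as a marker of senescence, become tdTomato-positive for good when tamoxifen is given, so that a Tom+ cell is one labelled at that time. Liver pieces were fixed before they were dissociated, Hoechst+ and MitoBrilliant 646+ cells were sorted as Tom- or Tom+, and 1 library of each was made by probe hybridization (10x Genomics Flex). The number of mice behind a library and their age are not given in the sources used here, and cells carry no animal label, so no test between the groups was possible.

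Both enzyme families make lipophilic molecules soluble enough to be excreted. A UDP-glucuronosyltransferase sits in the membrane of the endoplasmic reticulum and transfers a sugar, usually glucuronic acid, from a UDP-sugar to bilirubin, steroids, bile acids, phenols and many drugs. A sulfotransferase works in the cytosol and transfers sulfate from the donor PAPS to many of the same substrates. The liver lobule is supplied at its portal end and drained at its central vein, and hepatocytes along that path differ in what they express. CCl4 itself is activated by the central enzyme Cyp2e1.

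The Ugt1a members are a special case, because they are first exons of a shared locus on the forward strand of chromosome 1. In the GENCODE annotation of the mm10 (GRCm38) genome the first coding exons of Ugt1a10, Ugt1a9, Ugt1a8, Ugt1a7c and Ugt1a1 follow each other between positions 88055482 and 88212871. All 5 are spliced to the same 4 coding exons downstream, of which the first starts at 88215044, so that the last 737 coding bases, about 46% of each coding sequence, are the same in all of them. The first 60 coding bases of each are shown because the 5 genes can be told apart only in this exon, with the bases that differ from Ugt1a9 at the same position in capitals. They start at chr1:88070830-88070889 for Ugt1a9, chr1:88055482-88055541 for Ugt1a10, chr1:88087867-88087926 for Ugt1a8, chr1:88095121-88095180 for Ugt1a7c and chr1:88212002-88212061 for Ugt1a1, all on the forward strand.
Ugt1a9: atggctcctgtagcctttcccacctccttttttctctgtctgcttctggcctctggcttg
Ugt1a10: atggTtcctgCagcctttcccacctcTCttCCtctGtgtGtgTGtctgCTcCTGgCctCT
Ugt1a8: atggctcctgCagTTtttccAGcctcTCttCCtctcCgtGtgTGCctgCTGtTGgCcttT
Ugt1a7c: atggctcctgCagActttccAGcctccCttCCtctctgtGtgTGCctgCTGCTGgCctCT
Ugt1a1: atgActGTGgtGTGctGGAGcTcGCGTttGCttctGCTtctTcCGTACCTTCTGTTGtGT
Between 18 and 21 of the 60 bases differed from Ugt1a9 in Ugt1a10, Ugt1a8 and Ugt1a7c, and 38 in Ugt1a1. The first 60 bases of the common second exon, chr1:88215044-88215103, follow to show the part that no probe can assign to 1 of the 5 genes.
shared exon: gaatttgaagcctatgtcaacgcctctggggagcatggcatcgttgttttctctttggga

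Because each first exon has its own start site, the 250 bases before 4 of these starts are shown, with those of Ugt2b34 and Ugt2b35, so that starts of the same locus with different lobule profiles, and the 2 members counted as central, can be read beside each other. The sequences are from RefSeq on GRCm38.p6, whose table held 32 of the 37 members. Ugt1a10 (chr1:88055161-88055410), Ugt1a9 (chr1:88070529-88070778), Ugt1a8 (chr1:88087578-88087827), Ugt1a1 (chr1:88211709-88211958) and Ugt2b35 (chr5:87000610-87000859) lie on the forward strand and Ugt2b34 (chr5:86906938-86907187) on the reverse strand. Capitals mark matches, on either strand, to 3 motifs searched: GTTAAT, a half-site of the hepatocyte factor HNF1, GCGTG, the core bound by the aryl hydrocarbon receptor, and CTTTGA, the core bound by TCF factors of the Wnt pathway.
Ugt1a10: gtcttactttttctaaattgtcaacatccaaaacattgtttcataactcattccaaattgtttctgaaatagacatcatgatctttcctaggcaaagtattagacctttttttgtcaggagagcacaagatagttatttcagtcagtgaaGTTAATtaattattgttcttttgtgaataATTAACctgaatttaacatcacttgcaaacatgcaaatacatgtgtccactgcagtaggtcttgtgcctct
Ugt1a9: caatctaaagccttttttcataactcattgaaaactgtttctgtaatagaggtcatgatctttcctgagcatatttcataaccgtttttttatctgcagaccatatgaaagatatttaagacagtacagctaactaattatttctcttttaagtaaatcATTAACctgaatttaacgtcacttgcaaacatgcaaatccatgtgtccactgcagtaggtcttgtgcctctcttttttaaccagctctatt
Ugt1a8: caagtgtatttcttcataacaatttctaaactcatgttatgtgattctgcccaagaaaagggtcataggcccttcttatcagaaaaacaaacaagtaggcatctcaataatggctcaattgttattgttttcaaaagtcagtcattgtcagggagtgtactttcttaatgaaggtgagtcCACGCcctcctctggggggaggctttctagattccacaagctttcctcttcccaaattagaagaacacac
Ugt1a1: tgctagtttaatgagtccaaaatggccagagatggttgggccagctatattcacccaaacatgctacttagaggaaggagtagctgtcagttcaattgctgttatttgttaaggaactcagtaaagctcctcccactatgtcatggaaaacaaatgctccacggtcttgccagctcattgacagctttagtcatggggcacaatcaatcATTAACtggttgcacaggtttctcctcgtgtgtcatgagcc
Ugt2b34: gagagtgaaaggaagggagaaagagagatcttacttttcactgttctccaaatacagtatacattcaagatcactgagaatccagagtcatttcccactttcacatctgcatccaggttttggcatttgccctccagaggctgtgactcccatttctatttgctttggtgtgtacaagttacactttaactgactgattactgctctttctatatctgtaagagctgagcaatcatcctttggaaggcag
Ugt2b35: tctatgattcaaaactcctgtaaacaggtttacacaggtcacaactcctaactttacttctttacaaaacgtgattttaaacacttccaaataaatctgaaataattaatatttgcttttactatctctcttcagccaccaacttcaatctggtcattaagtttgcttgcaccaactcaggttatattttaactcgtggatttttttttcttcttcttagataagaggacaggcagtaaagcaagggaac
The HNF1 half-site was found in Ugt1a10, 100 and 71 bases before the start, in Ugt1a9 at 91 and in Ugt1a1 at 41, and the aryl hydrocarbon receptor core in Ugt1a8 at 70. The TCF core matched none of the 6 windows. Of the 32 member genes with a sequence, 12 (37.5%) held the HNF1 half-site, against 6.43% of all 32851 promoters in the table. Members were counted by gene, over 35 promoter entries, and all promoters by entry. The 12 include expressed members and others, such as Sult2a6 with no UMI. They also include close relatives, such as Ugt1a9 with Ugt1a10 and Sult2a3 with Sult2a4 and Sult2a5, and so are not independent. No share matched for base composition was computed. The aryl hydrocarbon receptor core was in 4 members (12.5%) and 28.2% of all promoters, and the TCF core in 9 (28.1%) and 13.8%. The windows of Ugt1a9 and Ugt1a10 were identical at 188 of 250 aligned bases (75.2%), with a run of 32 bases in common, while every other pair of these 6 stood between 46.4% and 53.2%. A match to such short letters is not a binding site.

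After filtering there were 11361 Tom- hepatocytes with 402958952 UMIs (unique molecular identifiers, counted molecules) and 10127 Tom+ hepatocytes with 401301801 UMIs, with medians of 32011 and 35151 UMIs per cell. The reporter itself, tdTomato, was at 73.6 CPM (UMIs of a gene relative to all UMIs in the hepatocytes of that library, on a scale where 2114 CPM are 0.211% of the UMIs) in Tom- and at 810 CPM in Tom+ hepatocytes, in the direction of the labels. Cdkn2a, the gene of p16Ink4a, was near the floor at 0.18 and 0.19 CPM (72 and 76 UMIs). Its exact Poisson intervals overlapped, at 0.14 to 0.23 and 0.15 to 0.24 CPM. The study states of human CDKN2A that p16Ink4a is not its only product. By qPCR it reports higher p16Ink4a in separately collected Tom+ than in Tom- hepatocytes. All 8 hepatocyte markers were detected in both libraries, summing to 150280 and 142477 CPM. All 8 endothelial and all 8 Kupffer cell markers were lower in the Tom+ library, with sums of 60.1 against 45.0 CPM and 198 against 147 CPM. For stellate cells and fibroblasts the sums of the 8 markers were 50.1 and 52.3 CPM, for other leukocytes 2.62 and 1.88 CPM, for 6 cholangiocyte markers 9.47 and 6.78 CPM and for 7 cycling genes 9.48 and 8.56 CPM. The libraries shared 503 cell barcodes, 2.17% of the Tom- and 3.08% of the Tom+ barcodes.

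Of the 37 members, 17 reached 10 CPM in the hepatocytes of either library, 11 of 16 Ugt and 6 of 21 Sult genes. Together the members took 0.211% of the UMIs in Tom- and 0.213% in Tom+ hepatocytes, with 1164 and 1175 CPM from the Ugt and 950 and 956 CPM from the Sult genes. These levels are signals of probe sets that differ from gene to gene in a number not given in the sources used here, so an order of members by CPM is an order of signals and not of molecules.

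**Figure D1:**
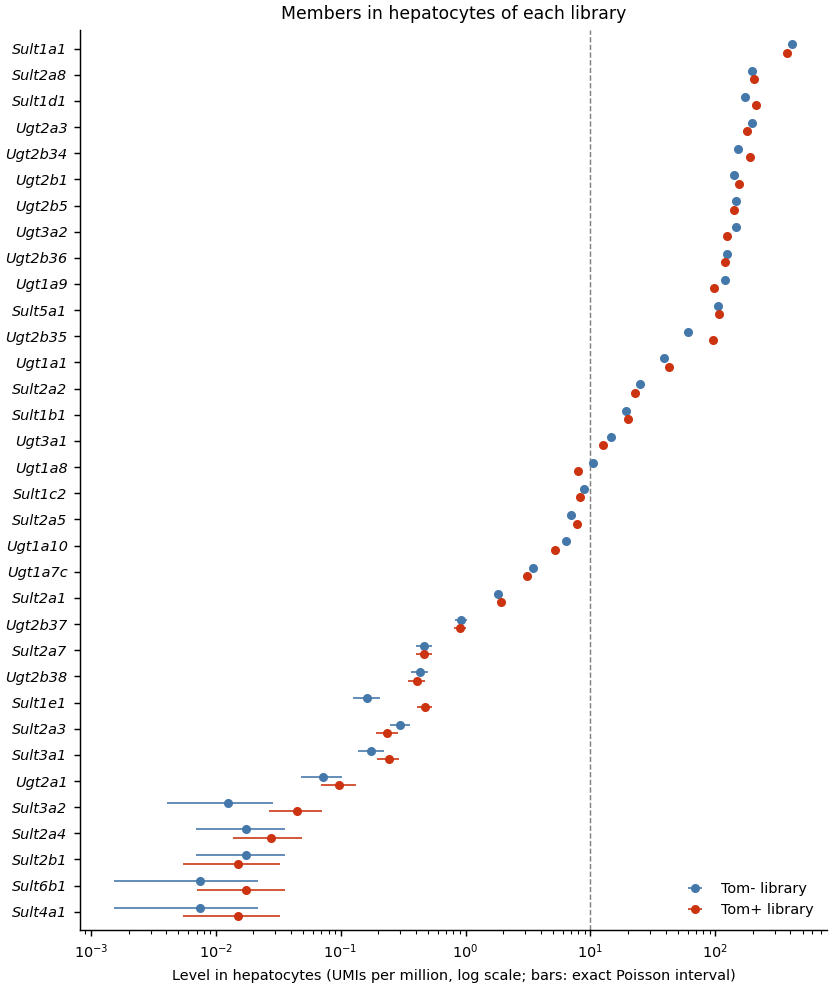
Level of the 34 members with a UMI in both libraries, in CPM on a log scale, in Tom- (blue) and Tom+ (red) hepatocytes, with exact Poisson intervals. Levels run from Sult1a1 at 414 and 375 CPM down to members under 0.1 CPM, the dashed line marks 10 CPM, and the points of Sult1e1 (0.16 and 0.47 CPM), Sult3a2 (5 and 18 UMIs) and Ugt2b35 (61.0 and 95.2 CPM) lie farther apart than those of most members.

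Sult1a1, the main phenol sulfotransferase, was the highest member at 414 CPM in the Tom- library (95% exact Poisson interval 412 to 416) and 375 CPM in the Tom+ library (373 to 377). Intervals here and below cover counting error only. Of the other SULT1 members, Sult1d1, which sulfates catecholamines, stood at 173 and 210 CPM, and Sult1b1, which acts on thyroid hormones, at 19.1 and 19.9 CPM. Sult1c2 was at 8.89 and 8.21 CPM, Sult1e1, the estrogen sulfotransferase, at 0.16 and 0.47 CPM (65 and 189 UMIs), and Sult1c1 had no UMI in either library, with upper limits of 0.00915 and 0.00919 CPM.

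Among the SULT2 members, which act on hydroxysteroids and bile acids, Sult2a8 led with 196 CPM in Tom- and 202 CPM in Tom+ hepatocytes. Sult2a2 followed at 24.9 and 22.6 CPM, Sult2a5 at 6.98 and 7.79 CPM and Sult2a1 at 1.81 and 1.91 CPM. Sult2a7, Sult2a3 and Sult2a4 stayed under 0.5 CPM, Sult2b1, the cholesterol sulfotransferase, had 7 and 6 UMIs and Sult2a6 none. Sult2a1 and Sult3a1 are known from female mouse liver, and Sult3a1 stood at 0.18 and 0.24 CPM in these males. Sult5a1, whose substrate is not settled, reached 105 and 107 CPM, while Sult3a2, Sult4a1 and Sult6b1 had at most 18 UMIs in a library and Sult6b2 none.

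On the Ugt side 7 members stood above 100 CPM in the Tom- library: Ugt2a3 at 198 CPM, Ugt2b34 at 151, Ugt3a2 at 147, Ugt2b5 at 146, Ugt2b1 at 142, Ugt2b36 at 123 and Ugt1a9 at 120 CPM. In the Tom+ library the same members stood at 180, 190, 124, 142, 154, 119 and 97.1 CPM. The Ugt2a and Ugt2b enzymes conjugate steroids, bile acids and drugs, and the Ugt3a enzymes use sugars other than glucuronic acid. Ugt2b35 was at 61.0 and 95.2 CPM, Ugt1a1, which conjugates bilirubin, at 38.9 and 42.9 CPM, Ugt3a1 at 14.5 and 12.5 CPM and Ugt1a8 at 10.5 and 7.99 CPM. Under the minimum in both libraries were Ugt1a10 at 6.41 and 5.16 CPM, Ugt1a7c at 3.46 and 3.13 CPM, and Ugt2b37, Ugt2b38 and Ugt2a1 below 1 CPM.

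Several of these values can hold signal from a close relative, since a probe reads 50 bases. Ugt2b5 and Ugt2b38, both on the reverse strand of chromosome 5, had 97.0% identical coding sequences, and Ugt2b5 and Ugt2b37 94.7%. Of all 50-base stretches of the Ugt2b5 transcripts, 41.7% also occurred in another annotated gene, against 0% for Ugt2b1, Sult1d1 and Sult1b1. The first 60 coding bases of Ugt2b5 (chr5:87140247-87140306), Ugt2b38 (chr5:87424112-87424171) and Ugt2b36 (chr5:87092465-87092524) are shown as an example, with bases that differ from Ugt2b5 in capitals.
Ugt2b5: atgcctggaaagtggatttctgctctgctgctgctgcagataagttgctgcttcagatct
Ugt2b38: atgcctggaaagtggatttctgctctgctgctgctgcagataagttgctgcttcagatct
Ugt2b36: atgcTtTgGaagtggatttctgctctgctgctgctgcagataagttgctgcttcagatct
Ugt2b38 was identical to Ugt2b5 over this stretch and Ugt2b36 differed at 3 bases. The signals of Ugt2b5 and Ugt2b38 nevertheless stood far apart, at 146 and 0.43 CPM in the Tom- library. Ugt3a1 and Ugt3a2, neighbours on the forward strand of chromosome 15, had 93.2% identical coding sequences and shared 8.60% and 9.39% of their stretches. Their first 60 coding bases, chr15:9335695-9335754 for Ugt3a2 and chr15:9279954-9280013 for Ugt3a1, differed at 7 positions, in capitals.
Ugt3a2: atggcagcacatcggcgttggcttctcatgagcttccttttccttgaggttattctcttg
Ugt3a1: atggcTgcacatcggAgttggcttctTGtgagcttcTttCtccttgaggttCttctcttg
The shared part of the stretches was 62.1% for Sult2a2, 34.5% for Sult2a5 and 33.2% for Sult2a1, which share them with one another and with further Sult2a genes. It was 58.2% to 63.0% for Ugt1a1, Ugt1a8, Ugt1a9 and Ugt1a10 and 53.7% for Ugt1a7c. Among members under 0.5 CPM it was 97.0% for Ugt2a1, 37.4% for Ugt2b38 and 25.5% for Sult2a4. The values of all these members are therefore uncertain between relatives, while for Sult1a1, Sult2a8, Sult5a1, Ugt2a3, Ugt2b1, Ugt2b34, Ugt2b35, Ugt2b36, Sult1d1 and Sult1b1 at most 6.58% of the stretches were shared.

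To place the members along the lobule, each hepatocyte was scored by 12 central against 12 portal landmark genes, none of them a member, and all hepatocytes were cut into 8 layers of equal size, from layer 1 at the portal end to layer 8 at the central end. Of 6 further portal genes kept out of the score 3 were at least 2-fold higher at the portal end, and all 4 of the 6 further central genes that could be assessed were 2-fold higher at the central end. The Tom+ library was weighted to the central end, with 2058 of its hepatocytes in layer 8 and 787 in layer 1, against 628 and 1899 Tom- hepatocytes. A gradient was counted where the 2 end layers differed at least 2-fold the same way in both libraries, which all 17 expressed members were deep enough to show.

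By that rule 2 members, Ugt2b34 and Ugt2b35, were higher at the central end, where 4.08% of all 7899 features assessed were. At the portal end 4 members were higher, Ugt1a8, Ugt1a9, Sult5a1 and Sult2a2, against 2.58% of all features. The other 11 expressed members differed less than 2-fold between the ends in both libraries.

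**Figure D2:**
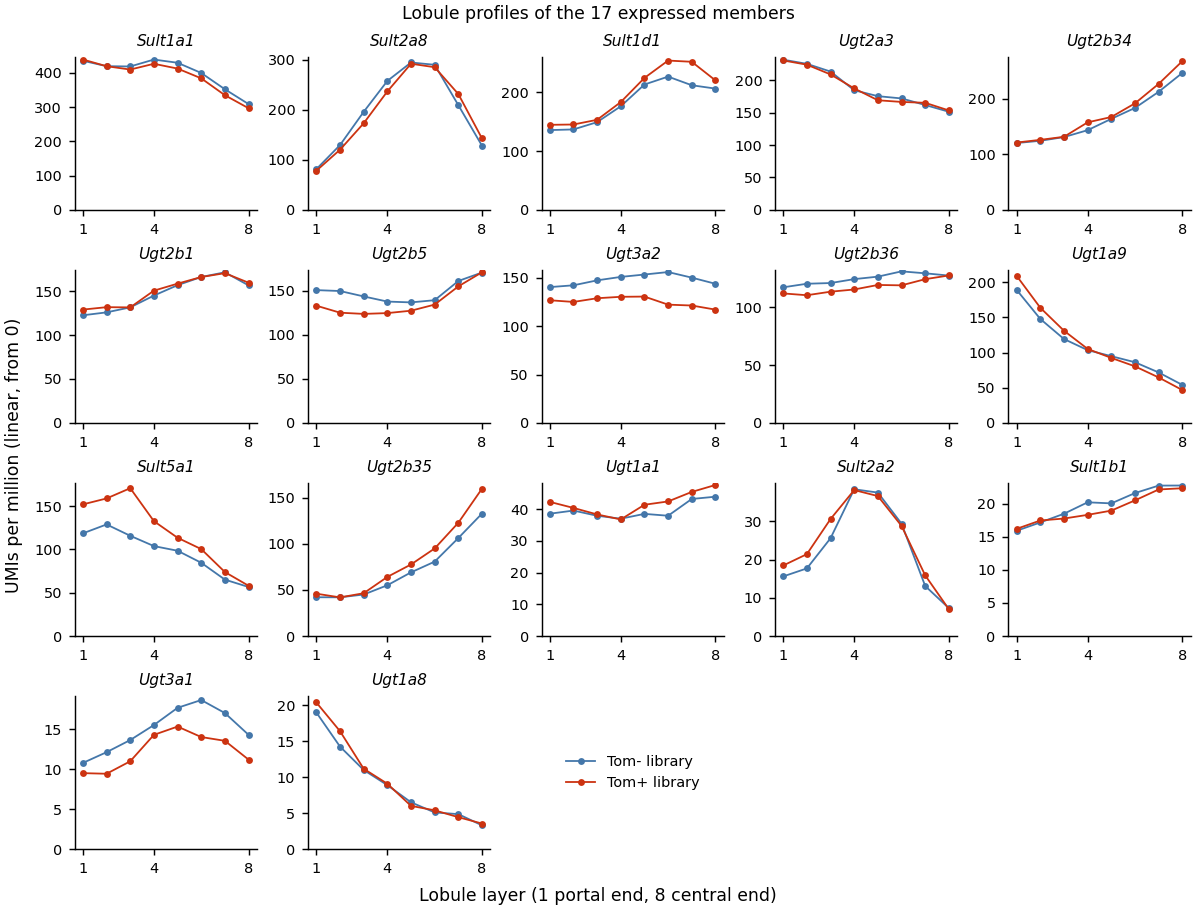
Level of the 17 expressed members in each of the 8 lobule layers, in CPM on a linear axis from 0, in Tom- (blue) and Tom+ (red) hepatocytes. Most red and blue profiles lie close together, with Ugt1a9 and Ugt1a8 falling and Ugt2b35 and Ugt2b34 rising toward layer 8 and Sult2a8 and Sult2a2 peaking in the middle, while Ugt3a2 and Ugt3a1 are lower in Tom+ cells in 8 of 8 layers and Sult5a1 is higher, by 0.56 on the log2 scale in layer 3 and 0.04 in layer 8.

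Ugt2b35 had the steepest central gradient, from 42.1 CPM in layer 1 to 133 CPM in layer 8 of the Tom- library and from 46.0 to 160 CPM in the Tom+ library, a 3.16-fold and 3.48-fold rise. It was level over layers 1 to 3 and rose from layer 4 on. Ugt2b34 rose from 120 to 247 CPM in Tom- and from 121 to 268 CPM in Tom+ hepatocytes, 2.05-fold and 2.21-fold. This member lies close to the limit, and with 4 layers, with 1 of the 2 landmark sublists, with deep cells or the Tom+-rich clusters left out, or with few-gene clusters kept, Ugt2b35 alone was counted.

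Ugt1a8 fell 5.75-fold from 19.0 CPM in layer 1 to 3.30 CPM in layer 8 of the Tom- library and 5.73-fold from 20.4 to 3.55 CPM in the Tom+ library. Ugt1a9 fell from 189 to 54.1 CPM (3.50-fold) in Tom- and from 209 to 46.7 CPM (4.47-fold) in Tom+ hepatocytes, step by step through all 8 layers. Ugt1a10, under 10 CPM, fell in the same direction, with log2 ratios of the central to the portal end of -1.94 and -1.89. Ugt1a1, at the downstream end of the same locus, was nearly level at 38.6 and 44.0 CPM in layers 1 and 8 of the Tom- and 42.3 and 47.7 CPM of the Tom+ library, and its log2 ratios of 0.19 (0.08 to 0.30) and 0.17 (0.08 to 0.26) are opposite in sign to those of the other 3. For Ugt1a7c the log2 ratios were -0.38 and 0.14, and both intervals included 0.

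The makeup of the signal of these 5 members therefore changed along the lobule. The locus has further annotated first exons, Ugt1a2, Ugt1a5, Ugt1a6a and Ugt1a6b, which are not among the measured features under these symbols. The shares are therefore not those of the whole locus. Ugt1a9 made up 73.0% of the UMIs of the 5 members in layer 1 and 50.6% in layer 8 of the Tom- library, and 73.6% and 45.0% in the Tom+ library. Over the same distance the share of Ugt1a1 went from 14.9% to 41.2% in Tom- and from 14.9% to 45.8% in Tom+ hepatocytes. The share of Ugt1a8 fell from 7.32% to 3.09% and from 7.17% to 3.41%.

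**Figure D3:**
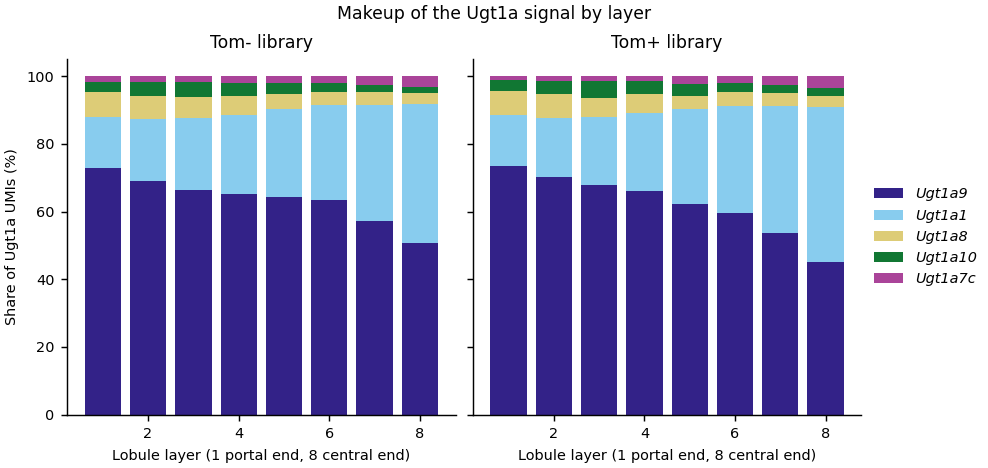
Share of each of the 5 Ugt1a members in their summed UMIs, in percent, by lobule layer in the Tom- (left) and Tom+ (right) library. The Ugt1a1 part widens from 14.9% in layer 1 of both libraries to 41.2% and 45.8% in layer 8, at the expense of Ugt1a9.

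Sult5a1 fell from 118 CPM in layer 1 to 56.6 CPM in layer 8 of the Tom- library (2.09-fold) and from 152 to 58.0 CPM in the Tom+ library (2.62-fold), with its highest values in layer 2 (129 CPM) and layer 3 (171 CPM). Sult2a2 was counted as portal by its ends, 15.6 and 7.29 CPM in Tom- and 18.5 and 7.01 CPM in Tom+ hepatocytes, but it peaked in layer 4 at 38.4 and 38.2 CPM. Its mean over layers 4 and 5 was 3.32-fold (Tom-) and 2.94-fold (Tom+) that of the end layers. Sult2a8 also had a maximum in the middle, but in layer 5 and with the central end above the portal end, at 81.5, 295 and 128 CPM in layers 1, 5 and 8 of the Tom- library and 78.3, 292 and 143 CPM in the Tom+ library, a 2.64-fold and 2.39-fold excess of the middle over the ends. These 2 members were the only ones of the 17 above 1.5-fold on that measure in both libraries. Under 10 CPM, Sult2a5 (3.41-fold and 2.76-fold) and Sult2a1 (3.83-fold and 5.63-fold) also exceeded it, and both share 50-base stretches with Sult2a2. The portal count of Sult2a2 was lost with 4 layers, with the second landmark sublist, without the Tom+-rich clusters, with few-gene clusters kept and at 50 CPM, and that of Sult5a1 with the second sublist and with the 4 zone 1 and zone 3 landmarks the study names (Sds, Cyp2f2, Glul and Cyp2e1).

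The remaining expressed members had shallow profiles. Sult1a1 and Ugt2a3 declined toward the central end, with log2 ratios of -0.50 (-0.53 to -0.46) and -0.61 (-0.67 to -0.56) in the Tom- and -0.56 (-0.59 to -0.54) and -0.59 (-0.63 to -0.55) in the Tom+ library. Sult1a1 went from 435 to 309 CPM in Tom- and from 439 to 297 CPM in Tom+ hepatocytes, and Ugt2a3 from 232 to 151 and from 230 to 153 CPM. Sult1d1 was higher centrally, at 136 and 207 CPM in the end layers of the Tom- and 145 and 221 CPM of the Tom+ library, with its peak in layer 6. Ugt2b1 rose from 122 to 156 and from 129 to 159 CPM, Sult1b1 from 15.9 to 22.7 and from 16.2 to 22.3 CPM, and Ugt3a1 from 10.8 to 14.3 and from 9.49 to 11.2 CPM with a peak in the middle. Ugt2b5 stood at 151 and 171 CPM in the end layers of the Tom- and 133 and 171 CPM of the Tom+ library, and Ugt2b36 had log2 ratios of 0.12 and 0.19. Ugt3a2, at 140 and 144 CPM in the end layers of the Tom- and 127 and 117 CPM of the Tom+ library, had log2 ratios of 0.03 and -0.11.

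Tom+ and Tom- hepatocytes were then compared at matched lobule position, by averaging the CPM of the 8 layers with equal weight in each library. Of the 37 members, 16 passed the minimum of 10 CPM in either average (Ugt1a8 fell below it). None of the 16 was 1.5-fold higher in Tom+ cells, against 0.218% of all 7800 features, and none was 1.5-fold lower, against 0.0128%, so at this fold the members had little room to differ from the background. At 1.25-fold the count was 0 in both directions too, where 146 of all features were higher and 33 lower. The log2 ratios ran from -0.28 to 0.31, 8 above and 8 below 0, with a median of 0.01 beside -0.01 over all 7800 features. Summed over all members the matched log2 ratio was 0.01. The lobule genes kept out of the position score had matched ratios of similar size, with a median of -0.18 over 3 central genes and of 0.11 over 6 portal genes, which ran from -0.24 (Cdh1) to 0.34 (Igf1).

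The highest ratio was that of Sult5a1, at 96.4 CPM in Tom- and 120 CPM in Tom+ hepatocytes after matching, a log2 ratio of 0.31 (0.29 to 0.34) or 1.24-fold. It was higher in Tom+ cells in 8 of 8 layers, by 0.56 in layer 3 and 0.04 in layer 8. The layers are parts of the same 2 libraries, so a sign shared by 8 of 8 layers, here and below, is not replication. Of the hepatocyte markers, Alb, Apoa1, Apob and Tdo2 were also higher in 8 of 8 layers. Hnf4a, Tat and Asgr1 were lower in 8 of 8, and Ttr was mixed. How many of all features share a sign over the layers was not counted. Without matching, Sult5a1 stood at 105 and 107 CPM and its log2 ratio was 0.03. Ugt2b35 followed with 71.7 and 81.8 CPM and a log2 ratio of 0.19 (0.16 to 0.22), higher in Tom+ cells in 7 of 8 layers. Its unmatched log2 ratio of 0.64 was the only one past 1.5-fold among the 17 members that reached 10 CPM. Sult1d1 (0.12) and Ugt2b34 (0.07) were higher in 8 of 8 layers, with intervals above 0 in 7 and 4 of them. Their unmatched ratios were 0.28 and 0.33.

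Ugt3a1 and Ugt3a2, the 2 members of the family that uses other sugars, had the lowest ratios. Ugt3a2 averaged 148 CPM in Tom- and 125 CPM in Tom+ hepatocytes, a log2 ratio of -0.24 (-0.26 to -0.22), and Ugt3a1 14.9 and 12.3 CPM, a ratio of -0.28 (-0.34 to -0.23). Both were lower in Tom+ cells in 8 of 8 layers, Ugt3a2 by 0.15 to 0.35 and Ugt3a1 by 0.12 to 0.41 on the log2 scale. The pair shares 8.60% and 9.39% of its 50-base stretches, and whether any probe reads both genes was not tested. Ugt2b5 had a ratio of -0.12, from -0.26 in layer 2 to 0.00 in layer 8.

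For Ugt1a9 the layers disagreed in sign, from 0.15 in layer 2 to -0.21 in layer 8, and the average was 0.04. In layer 8 the Tom+ cells lay further toward the central end, with the mean position score of the Tom- cells, 1.37, below theirs. Ugt1a9 was also lower in Tom+ cells in layers 6 and 7, with log2 ratios of -0.101 and -0.150. The mean scores there were closer, at 0.364 and 0.761 in Tom- and 0.380 and 0.768 in Tom+ cells. Whether position within a layer plays a part in these signs was not tested. With 16 layers the matched ratios of Ugt1a9, Ugt2b35 and Sult5a1 were 0.05, 0.18 and 0.32. With 8 layers, Sult1a1 (-0.04), Sult2a8 (-0.02), Ugt2a3 (-0.01), Ugt2b1 (0.03), Sult1b1 (-0.05), Ugt2b36 (-0.08), Ugt1a1 (0.08) and Sult2a2 (0.09) averaged within 0.1 of 0. Here too layers could disagree, as Sult2a8 ran from -0.18 in layer 3 to 0.16 in layer 8. Sult2a2 ran from -0.06 in layer 8 to 0.28 in layer 7, and its average was 0.11 with 16 layers. Without the Tom+-rich clusters Sult2a2, Ugt2b36 and Sult1b1 stood at 0.13, -0.13 and -0.11. Below the CPM minimum, Ugt1a8 had a matched log2 ratio of 0.07, Sult2a5 of 0.33 (0.26 to 0.41) and Sult1e1 of 0.96 (0.52 to 1.40), the last from 65 and 189 UMIs.

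**Figure D4:**
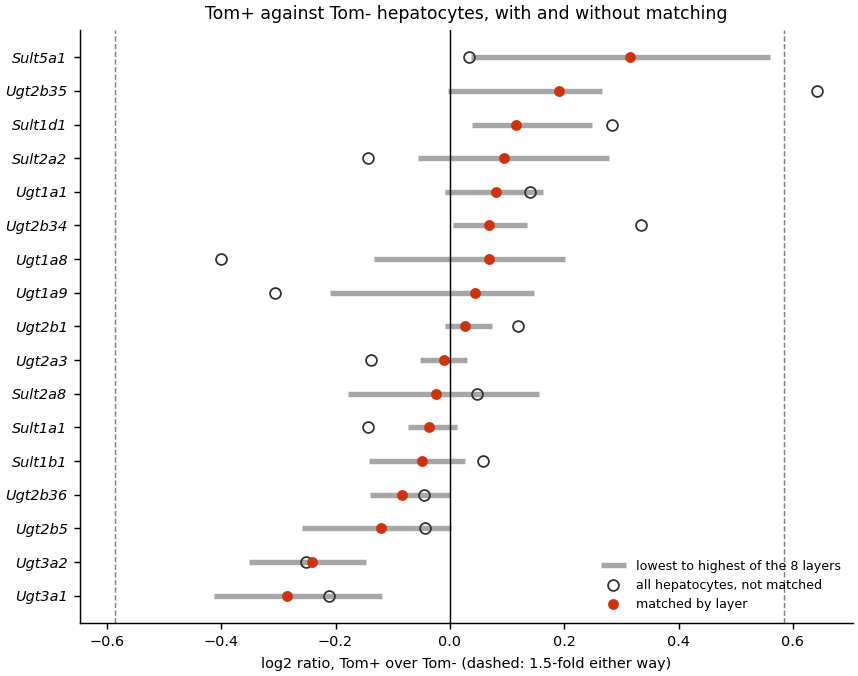
log2 ratio of Tom+ to Tom- hepatocytes for the 17 expressed members after matching by lobule layer (red), over all hepatocytes without matching (open circles), and from the lowest to the highest of the 8 layers (grey bars). The red points lie between -0.28 and 0.31, inside the dashed lines at 1.5-fold, whereas the open circles of Ugt1a8, Ugt2b35, Ugt1a9, Sult5a1, Ugt2b34 and Sult2a2 lie farthest from theirs.

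Part of the Tom+ library lay in hepatocyte clusters with hardly any Tom- cells. Clustered without the member genes, cluster 6 held 1674 Tom+ and 45 Tom- cells and lay toward the central end (mean layer 6.8 in Tom+), with H2-Q1, Ces2c and Dbp leading. Cluster 12 held 483 Tom+ and 38 Tom- cells at the portal side (mean layer 2.1), and cluster 13 only 20 Tom+ cells. The members in clusters 6 and 12 were compared with the other Tom+ hepatocytes of the same layers, as a description of cells chosen by clustering.

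In the Tom+ cells of cluster 12 Ugt1a8 stood at 32.6 CPM and Ugt1a9 at 290 CPM, the highest of any cluster with at least 50 cells of a library. Their log2 ratios over the other Tom+ cells were 1.38 and 1.02. Ugt2b35 (0.60), Sult1d1 (0.49) and Sult5a1 (0.44) were also higher there, and Ugt3a1 (-0.41) and Sult2a8 (-0.37) lower. The 38 Tom- cells of cluster 12 were high too, at 28.6 CPM for Ugt1a8, 214 CPM for Ugt1a9 and 268 CPM for Sult5a1. The highest values in Tom- clusters of at least 50 cells were 16.5, 165 and 183 CPM. In cluster 6 Ugt1a8 (0.66), Ugt2b35 (0.60), Sult1b1 (0.35), Sult1d1 (0.34) and Ugt2b34 (0.31) were higher, and Ugt3a1 (-0.65), Sult2a2 (-0.64) and Ugt3a2 (-0.24) lower. Ugt2b35 reached 168 CPM in cluster 6, its highest value in any such cluster.

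**Figure D5:**
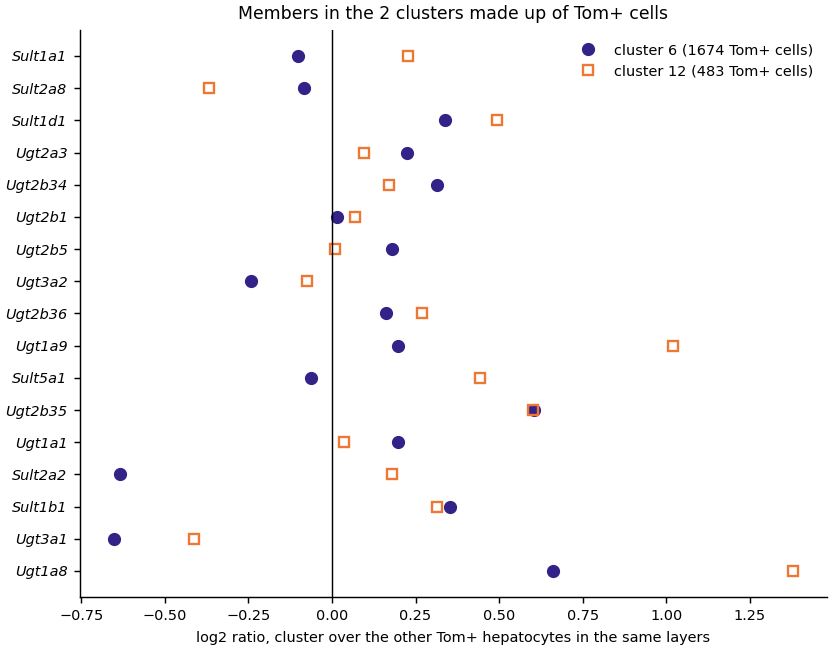
log2 ratio of each expressed member in cluster 6 (circles, 1674 Tom+ cells) and cluster 12 (squares, 483 Tom+ cells) over the other Tom+ hepatocytes in the same lobule layers. Ugt1a8 and Ugt1a9 stand farthest to the right in cluster 12, at 1.38 and 1.02, and Ugt2b35 lies at 0.60 in both.

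When the clusters with at least 90% Tom+ cells were left out, the matched log2 ratio of Ugt2b35 fell to 0.04, that of Sult1d1 to 0.03, that of Ugt1a9 to -0.11 and that of Ugt1a8 to -0.20. The ratio of Sult5a1 was 0.29, that of Ugt3a2 -0.21 and that of Ugt3a1 -0.19. Matched by hepatocyte cluster instead of layer, Sult5a1 stood at 0.16, Ugt3a2 at -0.16, Ugt3a1 at -0.15 and Ugt2b35 at 0.02. That matching used only clusters with at least 50 cells of each library, with 11190 Tom- and 7917 Tom+ hepatocytes. The clusters with at least 90% Tom+ cells therefore dropped out there too, and its Ugt2b35 value is not a separate check. Endothelial and Kupffer cell markers were lower in the Tom+ library, as given above, and without the 10% of hepatocytes that held most markers of other cell types the ratios of Sult5a1, Ugt3a2 and Ugt3a1 were 0.31, -0.24 and -0.30.

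Within the Tom+ library, the third of hepatocytes with the most tdTomato in each layer was set against the third with the least, 1410 against 353 CPM of tdTomato. Sult5a1 was higher in the bright cells, at 130 against 112 CPM (log2 ratio 0.21, 0.18 to 0.25). Ugt1a9 had the lowest ratio, -0.28 (-0.32 to -0.24), followed by Sult2a8 at -0.20, while Ugt3a2 stood at -0.16 and Ugt3a1 at -0.15. Sult2a2 (0.13), Ugt2b35 (0.11), Ugt1a1 (0.10) and Ugt2b34 (0.10) were slightly higher. The median over 17 members was -0.10, beside -0.02 over all 7808 features. Bright and dim cells also differed in depth, with medians of 28984.5 and 44663 UMIs, and the part of depth in these ratios was not tested.

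Across the hepatocyte clusters with at least 50 cells of a library, Ugt2b5, Ugt2b36, Ugt2b1, Ugt3a2 and Ugt1a1 varied by less than 1.5-fold in both libraries. Sult2a2 varied 4.29-fold in Tom- and 4.30-fold in Tom+ cells, with its highest value in cluster 0 (52.7 and 46.0 CPM), Ugt2b35 3.41-fold and 4.58-fold and Ugt1a9 2.86-fold and 5.55-fold. Ugt1a8 ran from 1.01 to 16.5 CPM in Tom- and from 0 to 32.6 CPM in Tom+ cells. Sult5a1 varied 2.77-fold and 2.83-fold. Its excess in Tom+ cells was uneven. In clusters 7, 10, 2 and 4 it stood at 94.8, 65.9, 93.7 and 72.2 CPM in Tom- cells. The Tom+ cells of these clusters had 163, 110, 128 and 99.1 CPM. In clusters 0, 1, 3, 5 and 8 it stood at 167, 183, 71.5, 96.6 and 77.0 CPM in Tom- cells. The Tom+ cells there had 157, 183, 70.7, 103 and 72.5 CPM. In clusters 6 and 12, with only 45 and 38 Tom- cells, it was lower in Tom+ cells, at 155 against 76.1 and 268 against 200 CPM. Clusters 7 and 8 passed the filters for hepatocytes but were led mostly by genes of other cells, cluster 7 by the Kupffer cell and macrophage genes Marco, Cd163 and Fcna and cluster 8 by Ecm1, Marco and Mup17 with Cd5l, Clec4f and Col3a1 in its top 10, so their values are those of mixed profiles. Cluster 8 had the lowest Sult1a1, at 207 and 198 CPM, and hardly any Ugt1a8, at 1.01 and 0 CPM.

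Clusters left out as non-hepatocyte still carried the members. In cluster 14 of all cells, led by the endothelial genes Oit3, Hecw2 and Npr1 with 421 Tom- and 154 Tom+ cells, Sult1a1 stood at 203 and 222 CPM and Ugt2a3 at 178 and 158 CPM, and Ugt1a8 at 1.37 and 0.57 CPM. The hepatocyte markers summed to 163786 CPM in the same cells and to at least 112891 CPM in each of the 18 clusters, so none could serve as a population without hepatocyte RNA.

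The genes that supply the enzymes and act beside them were described by a fixed list of 30. Of these, 4 were at least 2-fold higher centrally and 1 portally in both libraries, where 4.08% and 2.58% of all features were, and of 29 assessed none was 1.5-fold higher or lower in Tom+ cells at matched position (median log2 ratio -0.004). Ugdh, which makes UDP-glucuronic acid, rose from 73.2 to 183 CPM in Tom- and from 89.9 to 249 CPM in Tom+ hepatocytes, 2.51-fold and 2.77-fold, and had a matched log2 ratio of 0.32 (0.30 to 0.34), higher in 8 of 8 layers. Ugp2, the step before it, had a matched ratio of 0.14, also higher in 8 of 8 layers, while Slc35d1, which carries UDP-sugars into the endoplasmic reticulum, had a ratio of -0.13 and was lower in 8 of 8. Of the PAPS synthases, Papss2 stood at 248 and 292 CPM with a matched ratio of 0.18, higher in 8 of 8 layers, and Papss1 at 11.7 and 10.3 CPM with -0.23, lower in 8 of 8.

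Among the transcription factors known to act on Ugt and Sult genes, Nr1i3 (the constitutive androstane receptor) rose 18.2-fold and 22.6-fold from the portal to the central end and Ahr (the aryl hydrocarbon receptor) 5.37-fold and 6.03-fold. Cux2, a repressor known from female mouse liver, was the portal one, at 46.4 and 12.9 CPM in the end layers of the Tom- library. Abcc4, which exports sulfated and glucuronidated molecules, rose 20.8-fold and 23.2-fold to 24.6 and 31.3 CPM. The matched log2 ratios were 0.13 for Nr1i3, 0.27 for Ahr and -0.24 for Cux2, and 0.30 for Abcc4, whose average lay under 10 CPM.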

How the data were processed

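Whole-number counts of UMIs per gene and barcode, deposited by the authors for a Tom- and a Tom+ library (23220 and 16339 barcodes, 681279005 and 715333889 UMIs), were the input. Per the labels and the study's methods the authors hybridized a mouse transcriptome probe set with added tdTomato probes and made the matrices with Cell Ranger 7.2.0 on mm10; nothing in the values was normalized. Cells with a mitochondrial fraction above 0.05, under 2000 or over 10000 genes or over 100000 UMIs were dropped, as in the study, leaving 20159 and 13378. These were clustered (scanpy 1.11.5, Leiden resolution 0.8), and clusters with few genes (median under 0.75 times that of all kept cells) or with a Pecam1, Dcn or Ptprc level at or above 2.5 times that of the median cluster were removed, 43.6% of Tom- and 24.3% of Tom+ cells. Doublets were not called or removed; alternatives dropped deep cells and cells rich in other cell types' markers. Cells within 0.05 score units of a layer boundary were 26.4%.

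CPM were computed from counts summed over cells. A single library stands for each group, so the groups were compared without a test, by exact Poisson and exact conditional intervals and, for matched averages, an interval from the UMI counts, at 95% and for counting error only. A gradient needed 10 CPM in the higher end and 20 UMIs in each library, a matched ratio 10 CPM in either average and 20 UMIs. Named were all members at 10 CPM or more with their values, the others by level, and of the 30 pathway genes those counted and Ugp2, Ugdh, Papss1 and Papss2; Slc35d1 was added after its values were seen. Members and lists were chosen with earlier results of these data known. Of the lists, Ccnb1 and Sts were not among the features used here. Coding identity and shared stretches came from GENCODE M21 transcripts (Biopython 1.88), aligned globally. The calculations were tested on simulated data.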

Additional observations from a re-analysis of the deposited data

Results flagged for a closer look

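Sult2a7 was the only member whose level in a cluster left out of the hepatocytes exceeded that in hepatocytes by at least 1.5-fold in both libraries, with intervals above 0. In cluster 12 of all cells, led by the leukocyte genes Rgs1, Fyb and Aoah, it stood at 0.71 CPM in the Tom- library (36 UMIs in 1490 cells) and 0.86 CPM in the Tom+ library (33 UMIs in 914 cells), against 0.47 CPM in the hepatocytes of each. The log2 ratios were 0.60 (0.04 to 1.12) and 0.88 (0.30 to 1.42). This came from a search of all 37 members over every left-out cluster, without matching for lobule position. The hepatocyte markers summed to 146630 CPM in cluster 12, so its cells also carried hepatocyte RNA.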

How the results depend on the processing

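No paired analysis was possible because Tom- and Tom+ are represented by a single library. Of 94 counts and medians under the alternatives 78 were unchanged within their limits and 16 moved, 3 of them medians that changed sign, and of 340 matched member ratios 264 stayed within their counting error and 15 changed sign. Of 578 end-to-end ratios of members 466 stayed within it, 112 moved and 4 changed sign. Some alternatives altered only the fold or CPM limit, which cannot change a ratio, so part of the unchanged ratios was fixed in advance. The count of central members was 1 with 4 layers, with the first landmark sublist, without clusters of 90% or more Tom+ cells, with few-gene clusters kept and with at most 50000 UMIs per cell, 4 at 1.5-fold and 0 at 4-fold. The count of portal members was 2 with the second landmark sublist and at 50 CPM or more, and 1 at 4-fold. With no CPM minimum Ugt1a10 was counted as portal too, and further losses of Sult2a2 or Sult5a1 are given above. The count higher in Tom+ was 1 without matching (Ugt2b35), where 118 of all 7832 features were higher, and 3 with no CPM minimum (Ugt2a1, Sult1e1 and Sult3a2, all under 1 CPM), where 347 of 13564 were. The median matched log2 ratio of tested members was 0.0082. It was -0.0429 without matching, -0.0217 without the clusters of 90% or more Tom+ cells and 0.0602 with no CPM minimum. Matched by hepatocyte cluster, where those clusters dropped out too, it was -0.0224. Leaving out barcodes present in both libraries, chosen after they had been counted, changed none of these counts. The cause of these shifts was not tested beyond the setting itself. Because the libraries are single, differences between mice, sorting or hybridization cannot be told apart from the reporter, and members under 1 CPM rest on too few UMIs for a profile.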
